A study of Mus musculus with 6 samples.

Results

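Single-cell libraries of mouse small intestinal organoids hold many barcodes in which few genes were detected, and these are usually left out of an analysis. The barcodes described here are those with under 1000 genes detected, at any share of mitochondrial transcripts. They were selected on the measured number of genes, and they number 28648 of the 123544 barcodes in the 6 libraries, or 23.2%. In droplet sequencing a barcode marks 1 droplet, and each transcript molecule caught in it is counted once through its unique molecular identifier (UMI). A cell whose membrane leaks loses cytoplasmic RNA while transcripts inside mitochondria and the nucleus are held back, so a high share of transcripts from the mitochondrial genome (names starting with mt-) is widely read as a mark of damage. RNA free in the cell suspension, called ambient RNA, enters every droplet, with or without a cell, and brings the same mixture of transcripts from all cell types of the sample.

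Each library came from dissociated organoids at day 3 of culture. WT organoids, from adult mice, received the vehicle DMSO (2 libraries) or EIPA, an amiloride derivative (2 libraries). Organoids of the genotype inducible-CRISPR-Cas9, grown from single clones of WT organoids infected with a lentivirus carrying a guide RNA and a doxycycline-inducible Cas9-EGFP, were used without Dox (1 library) and with Dox (1 library). Live cells were sorted for the WT libraries and the library without Dox, whereas live GFP+ cells were sorted for the Dox library, so the agent and the gate cannot be told apart there. Replicates 1 and 2 of WT DMSO and WT EIPA are separate organoid preparations. The libraries held 176388405 to 249350351 UMIs, at a mean of 8077 to 17037 UMIs per barcode, and every barcode in the files had 500 UMIs or more. Droplets under that number were not analysed here, so the profile of free RNA alone was not measured. The matrices had been filtered before deposit, so the barcodes described are only those that the filter kept. Its effect on their number and RNA in each library was not examined. Any 2 libraries had 71 to 143 barcode sequences in common.

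Barcodes with under 1000 genes made up 32.9% of WT DMSO 1 (95% exact binomial interval 32.2 to 33.5, counting error only) and 25% of WT DMSO 2 (24.4 to 25.5). They made up 29.6% of WT EIPA 1 (29.0 to 30.2) and 22.3% of WT EIPA 2 (21.7 to 22.9). Among CRISPR libraries the share was 16% without Dox (15.5 to 16.5) and 8.09% with Dox (7.65 to 8.55). The WT groups overlapped, whereas both CRISPR libraries lay under all 4 WT libraries. Although they were numerous, these barcodes held few of the molecules, from 0.634% of all UMIs in the Dox library to 5.10% in WT DMSO 1. The 1000-gene limit cut through a continuous range. Barcodes with 950 genes or more but under 1000 had a median mt- share of 17.9% to 26.3% per library, and those with 1000 genes or up to 50 more had 19.4% to 26.8%.

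The mt- share of the barcodes with few genes ran over a wide range, and they were described in 3 classes of it. Over all libraries 9827 (34.3%) had under 5% mt- UMIs, 14104 (49.2%) had 20% or more, and 4717 (16.5%) lay between, with no gap at 20%. With Dox and in WT EIPA 2 the middle class was about as large as the lowest, at 208 against 210 and 368 against 376 barcodes. The limit of 5% was set after this distribution was seen. The barcodes under 5% were also the smallest, with a median of 555 to 991.5 UMIs per library against 1109 to 1517.5 UMIs at 20% or more. Their median mt- share was 0.656% to 2.07%, a value that the limit of 5% kept low by selection. Barcodes with 1000 or more genes, not selected on mt- share, had a median of 3.49% to 5.68% per library. With 34.3% under 5% mt- UMIs and 49.2% at 20% or more, barcodes with few genes were not uniformly rich in mt- transcripts. Those under 5% were 8.86% of the barcodes with few genes in WT EIPA 2, 18.1% with Dox, 37.4% without Dox, 41.2% in WT EIPA 1, 26.5% in WT DMSO 1 and 54.9% in WT DMSO 2.

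**Figure D1:**
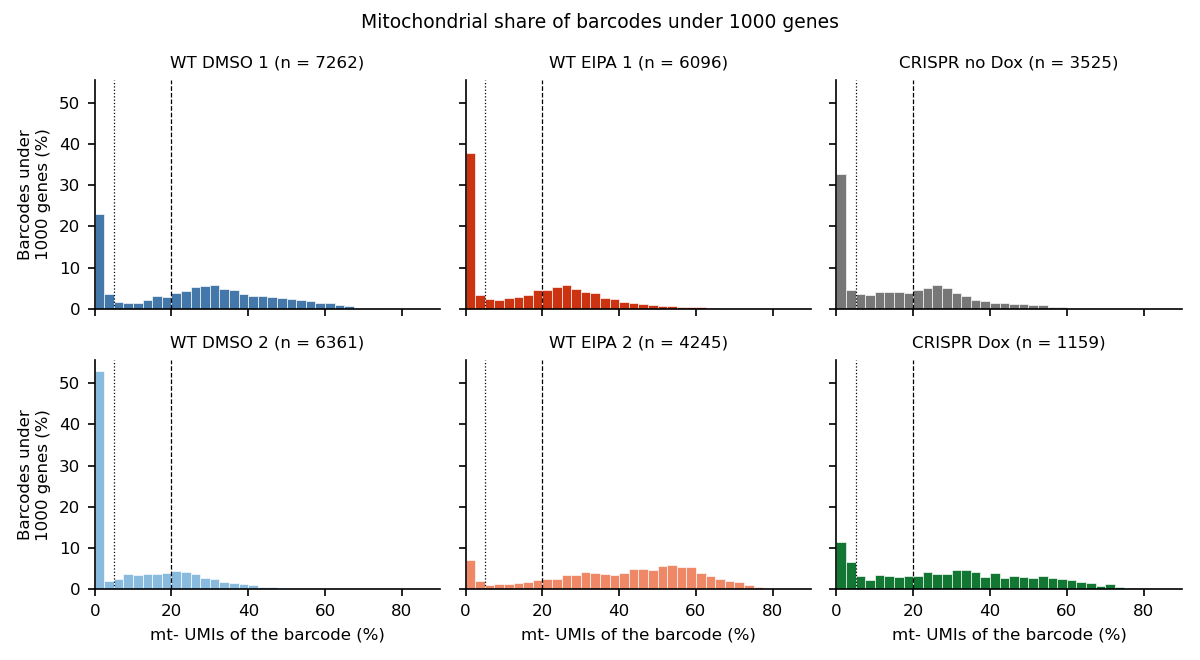
Mitochondrial share of the barcodes with under 1000 genes in each library. The x axis is the percent of a barcode's UMIs from mt- genes in bins of 2.5 points and the y axis the percent of that library's barcodes with under 1000 genes, with lines at 5% (dotted) and 20% (dashed). Most libraries show a narrow peak under 5% and a broad distribution above it, and WT EIPA 2 has few barcodes in the first and many past 40%.

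The classes under 5% and at 20% or more varied several fold between libraries. Barcodes with few genes and 20% or more mt- UMIs were 20% of all barcodes in WT DMSO 1, 6.1% in WT DMSO 2, 12.1% in WT EIPA 1 and 18.4% in WT EIPA 2. They were 6.33% without Dox and 5.17% with Dox. Barcodes with few genes and under 5% mt- UMIs were 8.70% of WT DMSO 1, 13.7% of WT DMSO 2, 12.2% of WT EIPA 1, 1.98% of WT EIPA 2, 5.98% without Dox and 1.47% with Dox. WT DMSO 2 had the most barcodes under 5% mt- UMIs of all 6 libraries, and WT EIPA 2 was next to last.

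**Figure D2:**
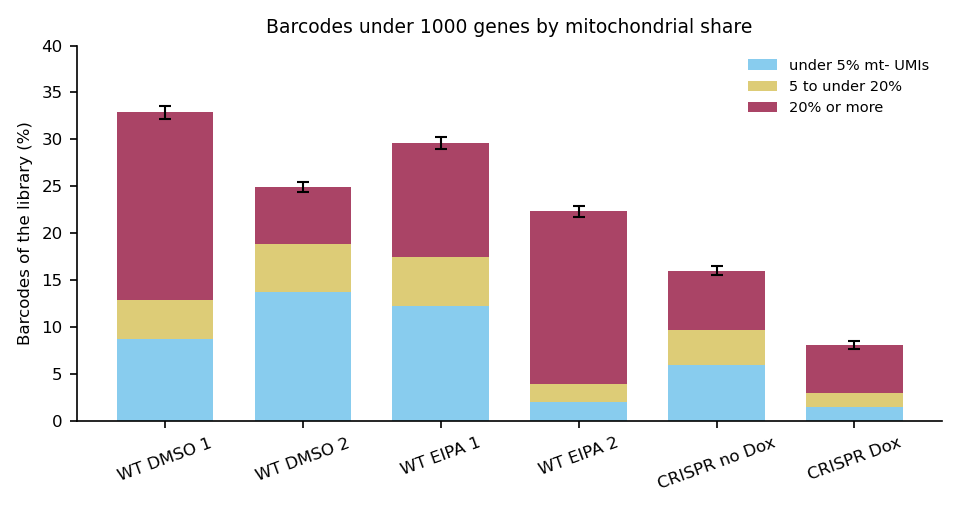
Share of each library's barcodes with under 1000 genes, split by the percent of mt- UMIs. Bars stack the 3 classes of mt- share, the y axis is the percent of all barcodes of the library, and error bars are 95% exact binomial intervals of the whole bar. The totals run from 8.09% with Dox to 32.9% in WT DMSO 1, and the part with 20% or more mt- UMIs is largest in WT DMSO 1 and WT EIPA 2.

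Whether EIPA altered the number of these barcodes was compared over the 4 WT libraries. The mean share of barcodes with few genes was 28.9% ± 5.58 (SD, n = 2) with DMSO and 26.0% ± 5.15 (n = 2) with EIPA, a difference of -2.94 points that was smaller than the spread within either group (two-sided exact permutation test, p = 0.667). With 2 libraries against 2 this test cannot go below 0.333. It takes the libraries as unpaired, and the spread within a group includes the difference between preparations. Within preparations the direction was shared. The EIPA library had 0.901 times the share of the DMSO library with the same replicate number in the first preparation and 0.895 times in the second. This was not tested, and for barcodes under 500 genes the EIPA library was not lower in either preparation. Leaving out 1 library breaks a pair and mixes preparations into the difference between group means. That difference turned to 0.702 points without WT EIPA 2 and to 1.01 points without WT DMSO 1. When all libraries were thinned to the same mean of 8077 UMIs per barcode, the shares were 32.9% and 27.5% with DMSO and 30.7% and 26.2% with EIPA.

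The mt- share of these barcodes went opposite ways in the 2 preparations. Of all UMIs in barcodes with few genes, mt- genes took 29.8% in WT DMSO 1 and 21.2% in WT EIPA 1, but 14.0% in WT DMSO 2 and 39.5% in WT EIPA 2. The EIPA library therefore had 0.713 times the mt- share of its DMSO library in replicate 1 and 2.81 times in replicate 2. By the median over barcodes these ratios were 0.537 and 29.0, and in barcodes under 500 genes 0.500 and 5.92. Barcodes with 20% or more mt- UMIs likewise stood at 0.608 times and 3.02 times, and those under 5% at 1.40 times and 0.144 times. The difference between group means was 8.45 points for the mt- share of UMIs (p = 0.667, exact permutation test), with a range of -0.692 without WT EIPA 2 to 17.6 without WT EIPA 1. For barcodes with 20% or more mt- UMIs it was 2.25 points (p = 1.00, exact permutation test), and it turned to -0.891 without WT EIPA 2 and to -4.68 without WT DMSO 2. The data therefore gave no direction for mt- rich barcodes with EIPA that both preparations shared.

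With Dox, barcodes with few genes were 0.506 times as frequent as without, and 0.772 times (15.7% against 20.3%) when the libraries were thinned to the same mean depth. The difference sat mainly in barcodes under 5% mt- UMIs, which were 0.245 times as frequent, while those with 20% or more were 0.817 times as frequent. The latter ratio turned to 2.02 with a limit of 40% mt- UMIs and to 1.19 for barcodes under 500 genes. Of the UMIs in barcodes with few genes, mt- genes took 33.4% with Dox and 20.3% without. Within those at 20% or more mt- UMIs they took 43.0% with Dox and 32.1% without. There is 1 library on each side, so no test was made, and clone, agent and GFP gate cannot be told apart.

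The next comparison addressed what the RNA in these barcodes was. Levels are given in CPM (UMIs per 1000000 UMIs of nuclear genes, with mt- genes left out of the total). In the sum over each library, nuclear-gene expression in barcodes with few genes was close to that of the other barcodes. Across 7766 to 8193 genes within a library, Pearson's r between log2 profiles of both classes was 0.962 to 0.989 (genes are not independent replicates), and the median size of a gene's log2 ratio was 0.163. Of 8047 nuclear genes at a mean of 10 CPM or more, 10 (0.124%) were at least 2-fold higher in all 6 libraries and none was at least 2-fold lower. Smaller shifts were widespread: 34.8% of genes were higher and 21.2% lower in all 6 libraries. Because the number of genes in the same barcodes chose the members, these ratios are a description and carry no test.

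A group of 3 annotated loci and 1 further gene led by a wide margin. Gm26917, Gm42418 and AY036118 are non-coding genes that lie beside each other on chromosome 17 over copies of ribosomal RNA sequence, and their counts are commonly read as ribosomal RNA caught in a poly(A)-primed library. AY036118 overlaps Gm42418 on the opposite strand, and without knowing how strand was used in counting, their reads cannot be told apart. Gm42418 reached 57365, 18708, 35166, 53923, 26070 and 45136 CPM in the barcodes with few genes of WT DMSO 1 and 2, WT EIPA 1 and 2, and the libraries without and with Dox. In the other barcodes it stood at 6809, 2921, 5662, 3503, 2771 and 3723 CPM. No value of the former class was as low as the highest of the latter, and the median log2 ratio over libraries was 3.15 on the CPM + 20 scale. Gm26917 had the largest ratio, 4.30 in the median, with 2631 to 5594 CPM against 114 to 309.8 CPM. AY036118 stood at 1059 to 2339 CPM against 145 to 269.7 CPM (log2 ratio 2.76). Lars2, which encodes the mitochondrial leucyl-tRNA synthetase, stood at 1016 to 5733 CPM against 91.9 to 192 CPM (log2 ratio 3.34).

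The 3′ ends of these transcripts are shown because the assay primes on poly(A) and reads the 3′ end. Each line holds the last 30 bases of the longest annotated transcript, 5′ to 3′ on its own strand (GRCm38, GENCODE vM21), with a polyadenylation hexamer, AATAAA or ATTAAA, in capitals where present on the transcript strand. Malat1 and Apoa4 are leading genes without and with a protein product, and Rps2 is the gene with the lowest ratio.
Gm26917: ctggtcctgtcccacccccgacggcttcgc
Gm42418: ggtcgccctgccgcccccagggtcgggggg
AY036118: gggacactcagctaagagcatcgagggggc
Lars2: accattgaattAATAAAtgttgtgaaccat
Malat1: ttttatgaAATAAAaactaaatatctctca
Apoa4: ctcAATAAAgcaactgagaaattagcccca
Rps2: aaAATAAAagaattaagtctgctgattatt

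These ends lie at chr17:39846312-39846341 (+) for Gm26917, chr17:39848759-39848788 (+) for Gm42418 and chr17:39847113-39847142 (-) for AY036118, all within exons of non-coding transcripts. The end of Lars2 is at chr9:123462635-123462664 (+) and that of Apoa4 at chr9:46243430-46243459 (+), both in the 3′ UTR. Malat1 ends at chr19:5795690-5795719 (-) in a non-coding exon, and Rps2 at chr17:24721900-24721929 (+) in its 3′ UTR. None of the 3 genes over ribosomal RNA sequence has either hexamer in this window. Over all measured genes with an annotated transcript, 5182 of 8044 (64.4%) have one, as do 5 of the 12 genes with the highest ratios and 10 of the 12 with the lowest.

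Further high genes included RNAs that stay in the nucleus. Malat1, a long non-coding RNA of nuclear speckles, stood at 13106 to 26205 CPM in barcodes with few genes and at 5592 to 8045 CPM in the others (log2 ratio 1.52). Neat1, the scaffold RNA of paraspeckles, stood at 390.4 to 1263 CPM against 186 to 368 CPM (1.48). Kcnq1ot1 (1.22), an imprinted RNA antisense to Kcnq1, and Tsix (1.23), antisense to Xist, were among the 10 genes at least 2-fold higher in every library. The same held for Snhg9 (1.10), a small nucleolar RNA host gene, and for the protein-coding genes Myo15b (1.49), Mlxipl (1.42), which encodes a carbohydrate-responsive transcription factor, and Apoa4 (1.19), an apolipoprotein of enterocytes. The 12 highest genes further held Gm49980 (1.33), Nckap5 (1.31) and Rmrp (1.30), the RNA of RNase MRP.

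Genes at the low end differed by less. Rps2, a protein of the small ribosomal subunit, stood at 2104 to 3978 CPM against 3980 to 5646 CPM (log2 ratio -0.68). The others were Nsa2 (-0.66), a ribosome assembly factor, Sdc4 (-0.65), Mgst3 (-0.64), Ybx3 (-0.64), Pa2g4 (-0.64), Ybx1 (-0.62), an mRNA-binding protein, Pclaf (-0.61), Fabp1 (-0.61), the fatty acid binding protein of enterocytes, Btf3 (-0.61), Pfn1 (-0.58), the actin-binding profilin, and Cdk4 (-0.56), a cell cycle kinase. Of 82 measured cytosolic ribosomal protein genes 64 were lower in all 6 libraries, against 21.2% of all genes, and none was higher (median log2 ratio -0.31). In barcodes under 5% mt- UMIs 18 were lower and 1 higher (-0.08), against 10.8% and 4.22% of all genes in that class. At 5% to 20% 76 were lower (-0.49), and at 20% or more 70 were (-0.34). Low ribosomal protein RNA was not particular to barcodes with few genes. Among the other barcodes, those at 20% or more mt- UMIs had 78 of 82 lower than all the others together (-0.74). In that comparison 20.5% of all genes were lower. Nuclear-encoded genes of oxidative phosphorylation had 16 of 21 lower and none higher (-0.26), and 6 lower and 1 higher under 5% mt- UMIs (-0.03). All 13 mt- genes, on a scale of all UMIs, were at least 2-fold higher over all barcodes with few genes (2.08). Under 5% mt- UMIs, a class chosen by its mt- share, 12 of 13 were lower (-1.72). Over all 8047 genes the median was 0.04.

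The classes of mt- share were set side by side for these genes. The 3 genes over ribosomal RNA sequence and Lars2 were higher than in the other barcodes in both outer classes, with median log2 ratios of 2.59 to 2.87 under 5% mt- UMIs and of 2.76 to 3.93 at 20% or more. Malat1 had a median log2 ratio of 0.18 under 5%, 2.09 at 5% to 20% and 1.59 at 20% or more. Neat1 had 0.16, 2.05 and 1.60, and Gm26917 was likewise highest in the middle class (5.10). Kcnq1ot1 had -0.45 under 5% and 1.89 at 20% or more, and Tsix -0.49 and 1.79. Xist, its antisense partner, was the lowest gene under 5% (-0.85) and among the 12 highest at 20% or more (1.60). Under 5% mt- UMIs, 4 of 7719 genes (0.0518%) were at least 2-fold higher in all libraries, against 15 of 8084 (0.186%) at 20% or more. The difference between classes was not tested. These genes were not particular to barcodes with few genes: in those with 1000 or more genes and 20% or more mt- UMIs the median log2 ratio to all such barcodes was 3.06 for Gm26917, 2.44 for Lars2, 2.24 for Gm42418, 2.02 for Malat1 and 1.83 for Neat1.

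**Figure D3:**
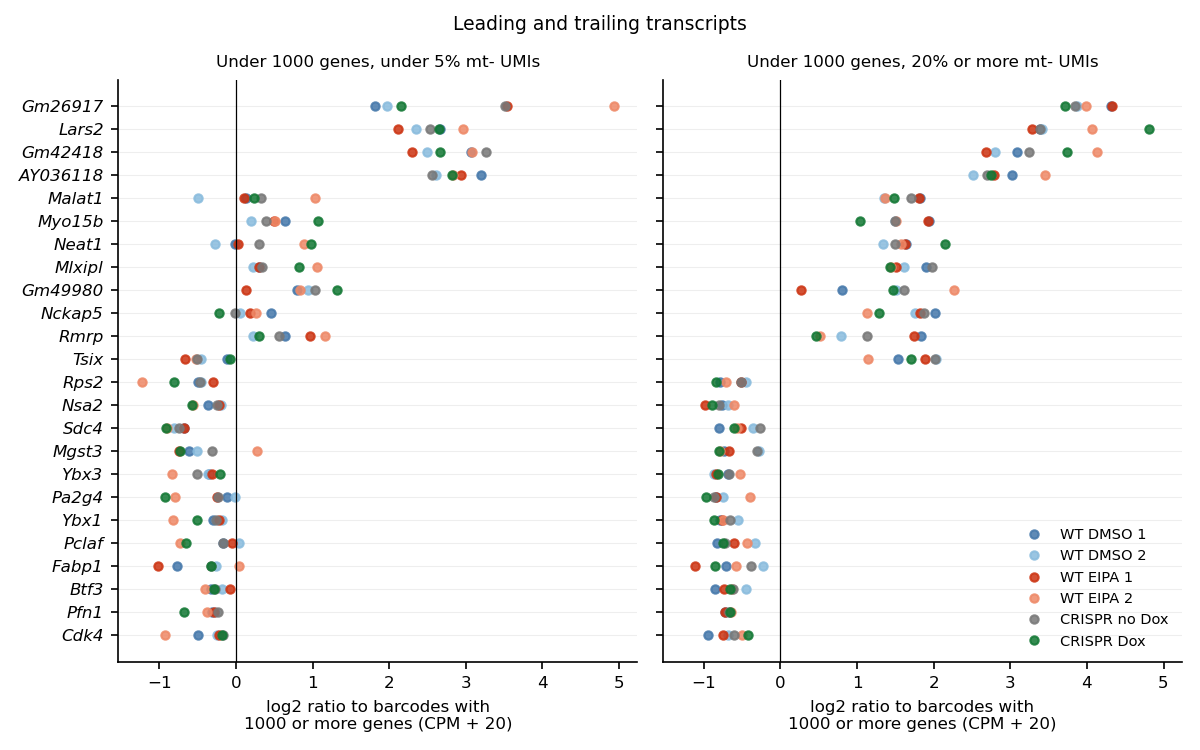
Log2 ratio of CPM + 20 between barcodes with few genes and barcodes with 1000 or more genes, for the 12 highest and 12 lowest genes, 1 point per library. The left panel holds barcodes under 5% mt- UMIs and the right panel those at 20% or more. The top 4 genes are right of zero in both panels in all libraries, whereas Malat1, Neat1, Nckap5 and Tsix are right of zero in all libraries only in the right panel. In the left panel single libraries of Malat1 and Neat1 still reach 1.04 and 0.98.

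Transcript length was examined next. At 20% or more mt- UMIs the median log2 ratio was -0.15 in the 2010 genes with the shortest transcripts (183 to 2088 bases) and 0.25 in the 2011 with the longest (4858 bases or more), and Spearman's rho across 8044 genes was 0.52. Under 5% mt- UMIs the medians of 4 length classes lay between -0.04 and -0.01 and rho was -0.06. Barcodes with 1000 or more genes but 20% or more mt- UMIs had the same rho of 0.52, so this relation went with a high mt- share on both sides of the gene limit.

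Within the mitochondrial transcripts, composition was compared for 3 abundant subunits. mt-Atp6, a subunit of ATP synthase, took 16.7% to 22.6% of mt- UMIs in barcodes with few genes and 15.5% to 20.7% in the others. For mt-Co2, a subunit of cytochrome c oxidase, the shares were 15.7% to 17.6% and 14.8% to 16.5%, but 12.6% to 14.3% in barcodes with few genes under 5% mt- UMIs. In that class mt-Atp8 took 0.879% to 1.34%, against 0.448% to 0.721% in barcodes with 1000 or more genes. mt-Co1, another subunit of that oxidase, varied more between libraries, from 10.6% to 18.2% in barcodes with few genes and from 11.6% to 18.0% in the others. In contrast to their share of mt- UMIs, their share of all UMIs differed widely: mt-Co2 took 2.33% to 6.94% of all UMIs in barcodes with few genes and 0.650% to 1.07% in the others. Under 5% mt- UMIs it took 0.109% to 0.289%.

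Genes of known cell types were summed next. The genes of epithelial identity (Epcam, Vil1, Cdh1, keratins and others) stood at 6074 to 8075 CPM in barcodes with few genes and at 6660 to 8687 CPM in the others. The blood, stromal and red cell lists had no gene at a measurable level, and their sums were at most 4.33 CPM, 3.75 CPM and 2.82 CPM, with 3, 1 and 0 genes at 0 UMIs. Summed enterocyte genes were within 0.936 to 1.15 times, and summed stem cell genes within 0.967 to 1.28 times, the level of the other barcodes. For stem cell genes this range held classes on opposite sides, with 0.723 to 0.909 times under 5% mt- UMIs and 1.05 to 1.67 times at 20% or more. Lgr5, the stem cell receptor for R-spondins, had a median log2 ratio of -0.53 in the former and 0.63 in the latter. Summed enterocyte genes also differed between these classes, with 0.608 to 1.11 times under 5% and 0.897 to 1.29 times at 20% or more. They were lower under 5% than at 20% or more except in WT EIPA 2 and with Dox. Over all barcodes with few genes, other lists ranged more widely. Paneth cell genes stood at 0.816 times in WT EIPA 1 to 2.14 times with Dox, enteroendocrine genes at 0.637 to 1.90 times and tuft cell genes at 0.868 times without Dox to 3.73 times in WT EIPA 1. The 1.90 times for enteroendocrine genes was with Dox, at 708 against 373 CPM. Reg4, a member of that list, alone made up 414 and 197 CPM of these sums. The tuft cell genes stood highest at 5% to 20% mt- UMIs, with 5.90, 7.62, 12.2 and 16.7 times in WT DMSO 1 and 2 and WT EIPA 1 and 2, 1.22 times without Dox and 3.17 times with Dox. They stood at 0.572 to 1.89 times under 5% and at 0.762 to 2.14 times at 20% or more. At 5% to 20% they summed to 284 to 879 CPM in the WT libraries. Levels in the CRISPR libraries were very low, 15.2 against 12.4 CPM without Dox and 32.8 against 10.3 CPM with Dox. Of the 208 barcodes of that class with Dox, 0.481% held a tuft UMI when thinned to 500 UMIs, so the ratio of 3.17 rests on few molecules. In bulk sums of this kind fewer cells of a type and less RNA per cell cannot be told apart.

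Single enterocyte genes did not move together. Of 17, 10 were higher in all 6 libraries and 3 lower, against 34.8% and 21.2% of all genes. Under 5% mt- UMIs none of 16 was higher or lower in all 6, where 4.22% of all genes were higher and 10.8% lower. In barcodes with 1000 or more genes and 20% or more mt- UMIs 13 of 17 were higher and 1 lower, against 47.0% and 20.5% of all genes. Apoa4 stood at 192 to 1370 CPM against 74.6 to 579 CPM, and Slc5a1 (log2 ratio 0.99), the sodium-glucose transporter, Apob (0.91), the structural protein of chylomicrons, Mttp (0.82), Apoa1 (0.81) and Sis (0.78), sucrase-isomaltase, were higher as well. Fabp1 (-0.61), Rbp2 (-0.27) and Fabp2 (-0.26), which encode small cytosolic lipid carriers, were lower. Proliferation genes had 7 of 11 lower, against the same 21.2%, and none higher, among them Ube2c (-0.44) and Stmn1 (-0.39). Under 5% mt- UMIs 1 of 11 was lower, near the 10.8% over all genes in that class.

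Gene lists linked to stress and cell death gave small differences in mixed directions. Of 13 immediate early genes, 9 were higher in all 6 libraries and none lower, with a median log2 ratio of 0.39. Fosb (0.86), Dusp1 (0.70), Jun (0.69) and Atf3 (0.66) were highest. Of 14 measured p53 and apoptosis genes, 5 were higher and 4 lower, near the 34.8% and 21.2% over all genes. Pmaip1 (0.38), Mdm2 (0.35) and Trp53inp1 (0.27) were on the high side and Ccng1 (-0.22) and Bax (-0.19) on the low side. Among 11 genes of endoplasmic reticulum and integrated stress, 7 were higher, including Atf4 (0.57) and Ppp1r15a (0.51), and 3 lower. No heat shock gene of 6 was higher in all libraries, and 3 were lower. No gene of these 4 lists reached a 2-fold ratio in all 6 libraries. Under 5% mt- UMIs the medians of all 4 lists lay between -0.07 and 0.04.

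To ask whether single barcodes looked like single cell types, each barcode was thinned to 500 UMIs, and the UMIs of each marker list were counted. If all barcodes drew from 1 common mixture, the variance of this count over its mean would be close to the binomial value, which was 0.953 to 0.999 for the lists named here. For stem cell genes the ratio under 5% mt- UMIs was 1.08 and 1.09 in WT DMSO 1 and 2, 1.03 in WT EIPA 1, 1.14 without Dox, 1.30 with Dox and 2.08 in WT EIPA 2. All of these were above the binomial value. In barcodes with 1000 or more genes and under 20% mt- UMIs it was 2.55 to 3.48. For enterocyte genes the ratio was 1.48 to 5.75 in 5 libraries and 15.0 in WT EIPA 2, against 21.1 to 27.1 in the larger barcodes. For Paneth cell genes it was 4.58 to 25 in 5 libraries and 82.8 in WT EIPA 2, against 73.7 to 126.

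Markers of different lineages were then counted in the same barcodes. At 500 UMIs, 84.7% to 98.1% of the barcodes under 5% mt- UMIs held a UMI of both the enterocyte and the Paneth list, whereas 23.7% to 56.9% of the larger barcodes with under 20% mt- UMIs did. At 20% or more mt- UMIs the share was 64.2% to 94.9%. The 500 UMIs include mt- UMIs, which took a mean of 148 to 234 of them in that class. They took 4.14 to 10.9 under 5% and 21.6 to 31.3 in the larger barcodes, so fewer nuclear-gene UMIs were left at 20% or more. The shares with both lists were close to the product of the shares with each list alone. The ratio to that product was 1.00 to 1.01 under 5% mt- UMIs and 0.960 to 0.996 in the larger barcodes. Under 5% mt- UMIs Paneth genes were seen in 90.7% to 99.4% of barcodes, and enterocyte genes in nearly as many. With shares so near 100% the ratio could hardly leave 1 there, so it does not show whether the lists were seen independently. The shares with both lists thus follow from how often each list was seen. Enterocyte genes alone were seen in 85.1% to 98.6% of barcodes under 5% mt- UMIs and in 49.0% to 74.2% of the larger barcodes. Their mean count of 500 UMIs was 3.30 against 4.61 in WT DMSO 1, 2.08 against 2.22 in WT DMSO 2, 4.46 against 7.46 in WT EIPA 1, 7.53 against 7.15 in WT EIPA 2, 4.70 against 5.55 without Dox and 11.5 against 11.4 with Dox. WT EIPA 2 stood apart from the other libraries: its 376 barcodes under 5% mt- UMIs had the widest spread of every list shown in the plot of marker spread. Cells that share a droplet, free RNA and remnants of cells were not told apart by a test.

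**Figure D4:**
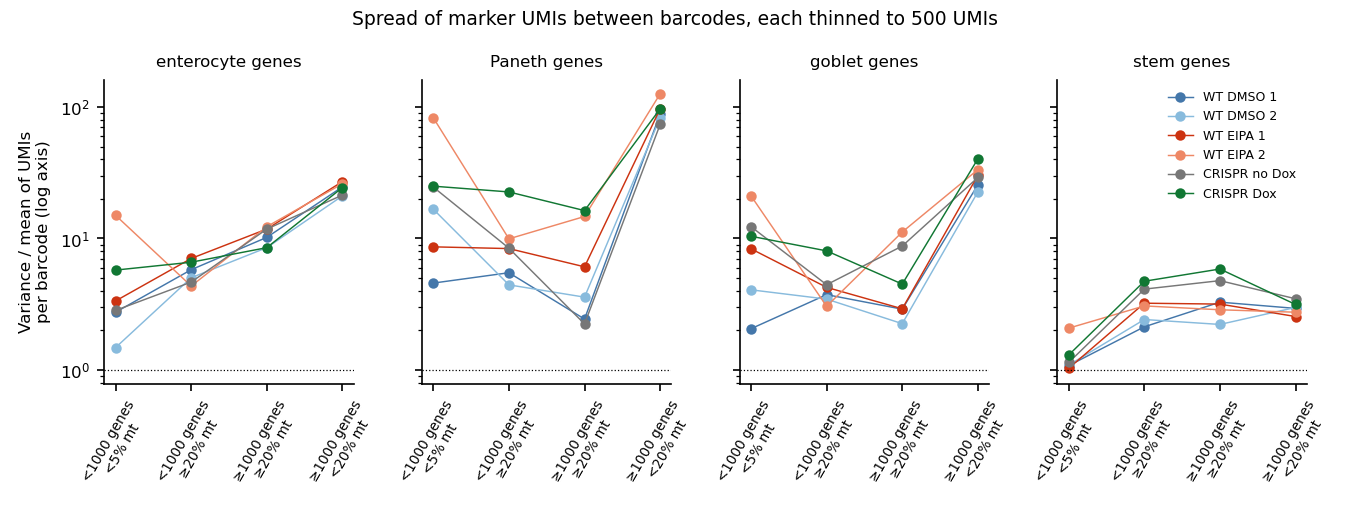
Variance over mean of the UMIs of 4 marker lists per barcode, on a log axis, after each barcode was thinned to 500 UMIs. Points are libraries, the x axis holds 4 classes of barcode, and the dotted line at 1 is close to the binomial value. Stem cell genes lie at 1.03 to 1.30 in barcodes under 5% mt- UMIs except in WT EIPA 2 (2.08). Enterocyte, Paneth and goblet genes spread most in barcodes with 1000 or more genes and under 20% mt- UMIs.

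The effect of EIPA on the RNA of these barcodes was tested on counts summed per library. Of 11369 genes tested with edgeR, 31 rose (0.273%) and 2 fell (0.0176%) at an adjusted p under 0.05, and 452 (3.98%) had an unadjusted p under 0.05. With the replicate number as a block, 144 rose and 11 fell. The count was 282 without WT DMSO 1, 62 without WT EIPA 1 and 58 without WT EIPA 2, in fits that take the lone library left in a group to vary like the others. The mt- share that went opposite ways in the 2 preparations enters these sums.

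Mt4, a metallothionein of stratified epithelia, stood at 18.3 and 22.6 CPM with DMSO and at 112 and 212 CPM with EIPA. The groups did not overlap, and the fold change on the log2 scale came to 3.03 (SE 0.337, edgeR adjusted p = 5.98e-04). Sprr1a, a cornified envelope protein, stood at 15.6 and 9.51 CPM against 73.4 and 93.0 CPM (2.78, SE 0.277, adjusted p = 3.37e-04). Guanine deaminase, Gda, stood at 23.5 and 11.6 CPM against 98.3 and 78.8 CPM (2.41, SE 0.297, adjusted p = 0.00173). All 3 were higher in both EIPA libraries than in either DMSO library.

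Other named genes followed. Tm4sf4, a tetraspan membrane protein, rose by 2.34 (adjusted p = 5.98e-04), Anpep, aminopeptidase N, by 2.13 (adjusted p = 0.0382, but 0.688 with DESeq2), and Guca2b, uroguanylin, by 2.07 (adjusted p = 0.0119). The apolipoproteins Apoc2 and Apoc3 rose by 2.11 (adjusted p = 0.0106) and 1.95 (adjusted p = 0.0331). Guca2b stood at 235 and 137 CPM with DMSO and at 713 and 773 CPM with EIPA. The immediate early gene Fosb fell by 1.70 (adjusted p = 0.0323), from 128 and 57.4 CPM to 27.5 and 26.6 CPM, and its call was lost without WT EIPA 1 (adjusted p = 0.073) or WT EIPA 2 (adjusted p = 0.0827). The other gene that fell, Hist1h2ac (-1.84), is under the abundance set for named genes and is given to complete the pair.

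**Figure D5:**
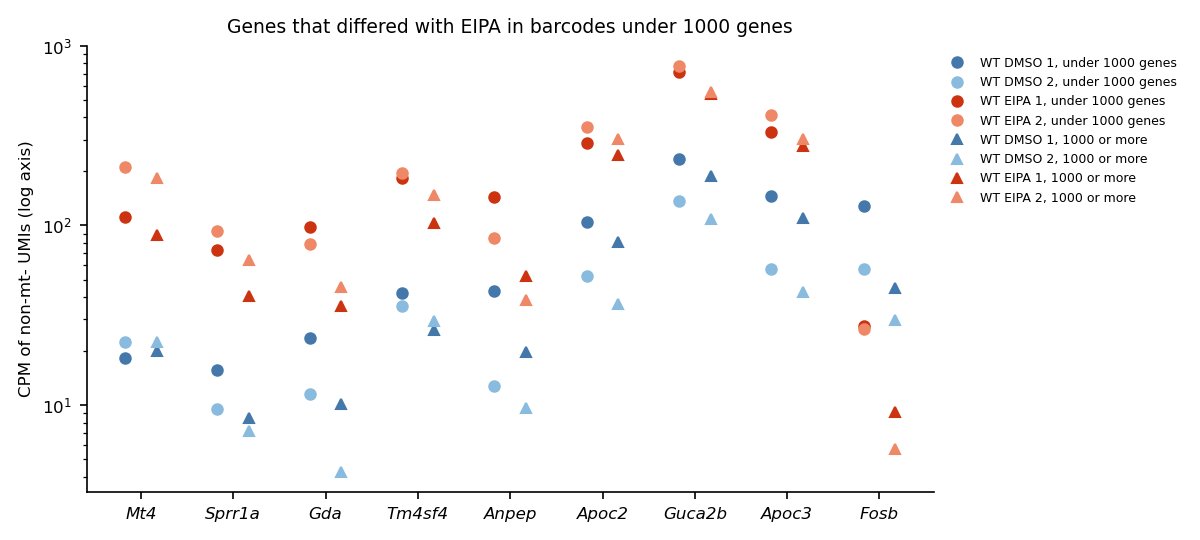
CPM of the named genes that differed with EIPA in barcodes with few genes, on a log axis, 1 symbol per WT library. Circles are barcodes with under 1000 genes and triangles those with 1000 or more. For all 9 genes both EIPA libraries lie on one side of both DMSO libraries in either class.

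Among the gene lists, 3 of 17 enterocyte genes rose in barcodes with few genes (Anpep, Apoc3 and Ada), where 0.273% of all genes tested rose and 0.0176% fell. All 17 had a positive log2 fold change with a median of 1.07, against -0.03 over all genes tested. Of 9 goblet genes 1 rose, Clca1. None of 17 Paneth genes passed, 16 of them had a positive value (median 1.11), and Lyz1 had 0.78 (SE 0.528, adjusted p = 1.00). Of 13 immediate early genes 1 fell, Fosb, and the other 12 also had negative values (median -0.49). No gene of the p53, stress, heat shock, oxidative phosphorylation or ribosomal protein lists passed. The 13 mt- genes all had positive values (median 0.83) and none passed.

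The result was examined under 20% and at 20% or more mt- UMIs, since the mix of classes differed between libraries. The lower side still mixes barcodes under 5% and at 5% to 20%. These numbered 376 and 368 in WT EIPA 2 and 3490 and 1317 in WT DMSO 2. Under 5% alone 13 genes passed, in a fit added after the data were seen. Under 20% mt- UMIs 81 of 10393 genes rose (0.779%) and 2 fell (0.0192%), with 6.69% at an unadjusted p under 0.05. Among them were 7 of 17 enterocyte genes, including Anpep, Ada, Apoc3, Apoa1, Krt20 and Alpi. The count was 0 without WT DMSO 2 (189 genes at an unadjusted p under 0.05), 224 without WT EIPA 1, 134 without WT DMSO 1 and 128 without WT EIPA 2. Sst, the hormone somatostatin of D cells, had the largest fold here (4.03), but 3 barcodes held 240 of its 242 UMIs in WT EIPA 2.

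At 20% or more mt- UMIs 19 of 10402 genes rose (0.183%) and 3 fell (0.0288%), with 3.82% at an unadjusted p under 0.05. With the replicate block the counts were 124 and 29. Tm4sf4 rose by 2.53 (SE 0.269, adjusted p = 0.0012), Mt4 by 2.51, Gda by 2.29, Apoc2 by 2.00, Guca2b by 1.98, Apoc3 by 1.69, Gm3776 by 1.60 and Mme, the brush border peptidase neprilysin, by 1.5. Fosb fell by 1.88 (adjusted p = 0.0404) and Fos by 1.45 (adjusted p = 0.0435). Leaving out 1 library ended the calls of Fosb (edgeR adjusted p up to 0.259), Fos (0.664), Gm3776 (0.337), Mme (0.198), Mt4 (0.137) and Apoc3 (0.119), but not those of Tm4sf4, Gda, Apoc2 and Guca2b. Fos stood at 498 and 408 CPM with DMSO and at 156 and 167 CPM with EIPA. The count was 8 without WT DMSO 1, 10 without WT DMSO 2, 78 without WT EIPA 1 and 40 without WT EIPA 2. Among others, Mt4, Gda, Tm4sf4 and Fosb passed both under 20% and at 20% or more mt- UMIs.

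Barcodes with 1000 or more genes gave no call with the same test (0% of 15987 genes), although 1462 had an unadjusted p under 0.05 (9.14%) and DESeq2 called 520. With the replicate block 859 genes passed, and without WT DMSO 1 131 did. Their values were similar: Mt4 had a log2 fold change of 2.79 there, Sprr1a 2.85, Gda 2.61, Guca2b 1.98 and Fosb -2.24, each at an adjusted p of 0.273 or 0.274. Calls in one class and not in the other thus do not show a difference between them.

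The difference itself was tested as an interaction with a term for each library. Of 15776 genes, 3 had a larger effect of EIPA in barcodes with few genes (0.0190%) and 1 a smaller effect (0.00634%), and 394 (2.50%) had an unadjusted p under 0.05. Sst differed by 2.30 (SE 0.228, adjusted p = 1.20e-19), with 7.35 and 9.85 CPM with DMSO and 59.9 and 82.9 CPM with EIPA. Of those UMIs, 203 of 318 in WT EIPA 1 came from 2 barcodes and 240 of 262 in WT EIPA 2 from 3. An alternative added after the data were seen left out barcodes of 10 or more Sst UMIs from the class with few genes only. The difference was then 0.36 (adjusted p = 1.00). The other barcodes stayed whole, although 10 of them held 3865 of 4259 Sst UMIs in WT EIPA 1 and 15 held 5487 of 5786 in WT EIPA 2. The classes were thus not treated alike. Gcg, proglucagon, differed by 1.05 (adjusted p = 0.0037) and its call was lost with DESeq2 (adjusted p = 1). Afp, alpha-fetoprotein, differed by -1.54 and AF067061 by 5.86, the latter on 1 to 8 UMIs per library in barcodes with few genes, and neither passed with DESeq2 (adjusted p = 1 for Afp and 0.377 for AF067061).

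With Dox, barcodes with few genes carried more Paneth cell RNA. Of 3146 genes at 50 CPM or more, 61 (1.94%) were at least 2-fold higher and 9 (0.286%) at least 2-fold lower than without Dox, a comparison of 2 libraries with no replicate check. Defa24, an alpha-defensin, stood at 3293 CPM without Dox (exact 95% interval 3230 to 3357, counting error only) and at 21996 CPM with Dox (21710 to 22284), a log2 ratio of 2.73. Lyz1, lysozyme, stood at 1243 CPM and 8248 CPM (2.71). Reads of near-identical defensin genes may be split between family members, so a single family member is uncertain.

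Further genes of the Paneth list followed. Ang4, an antimicrobial ribonuclease, stood at 124 and 1593 CPM (log2 ratio 3.49), Mmp7, the protease that activates defensins, at 102 and 1052 CPM (3.13), Defa17 at 1126 and 7935 CPM (2.80) and Itln1, intelectin, at 1530 and 9268 CPM (2.58). Outside that list, Reg4 (2.49) and Guca2b (2.40) were among the 8 highest. The 8 highest genes were also higher in barcodes with 1000 or more genes, from 1.52 for Itln1 to 2.43 for Ang4. Of 8 goblet genes 5 were at least 2-fold higher, where 1.94% of all genes were, with a median of 1.39 against 2.65 for the Paneth list. The 10 measured Paneth genes were all at least 2-fold higher, and their list summed to 7790 CPM without and 51940 CPM with Dox. In barcodes with 1000 or more genes the list summed to 7167 and 24223 CPM, so the ratio was larger where few genes were detected, and this was not tested.

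The low end with Dox held Dmbt1 (-2.02), a mucosal scavenger receptor, 2610528A11Rik (-1.50), Selenbp1 (-1.42), the immediate early genes Fos (-1.29) and Jun (-1.23), the sterol and fatty acid enzymes Lss (-1.12) and Scd1 (-1.08), and Sprr2a3 (-1.02). Dmbt1 stood at 219 CPM without and 38.8 CPM with Dox. Of 14 measured enterocyte genes 5 were at least 2-fold higher, against 1.94% of all genes. In barcodes with 1000 or more genes 8 of 13 were. No gene of the stem (5 measured) or proliferation (9 measured) lists differed 2-fold. These lists are too short to set against the 1.94% higher and 0.286% lower over all genes. Of the 13 mt- genes, on a scale of all UMIs, 3 were at least 2-fold higher and none lower.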

How the data were processed

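Single-cell 3′ libraries (10x v3.1 chemistry) of 6 samples were used. The deposited values are counts of UMIs per gene and barcode, which the authors made with Cell Ranger 6.1.2 (mm10, GRCm38) and deposited without normalization as filtered matrices of 32285 genes. Barcodes with under 1000 genes were compared with the others of the same library. Members and gene lists were chosen with earlier results of these data known. Doublets were not removed.

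Counts were summed per library and class. CPM were taken over nuclear-gene UMIs, and log2 ratios used a pseudocount of 20 CPM. Named genes were the 12 highest and 12 lowest median ratios among genes on the same side in all 6 libraries, at a mean of 10 CPM or more. For EIPA they were the 8 largest changes in each direction past the test at a mean log CPM of 5 or more, and for Dox the 8 largest and smallest ratios at 50 CPM or more, beside mt- genes and list members. The gene targeted in the CRISPR line and some list members are not reported here. EIPA was tested with edgeR 4.0.16 (R 4.3.3, TMM, quasi-likelihood F test, Benjamini-Hochberg over all genes tested, 0.05). DESeq2 1.42.0, other gene and mt- limits, other pseudocounts, other filters and leaving out each library were alternatives. Shares have exact binomial intervals and a two-sided exact permutation test.

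Replicates 1 and 2 of both WT groups are paired as preparations 1 and 2 in the study's source data. Across genes, the departures of 2 libraries that share a number from the mean of each one's group correlated at r = 0.29 in barcodes with few genes, 0.02 under 20% and 0.36 at 20% or more mt- UMIs, and 0.70 in the others. The edgeR step was tested on simulated data. At most 3000 barcodes per class and library were thinned. Sequences were read from GRCm38 with GENCODE vM21. Python 3.11.15 was used.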

Additional observations from a re-analysis of the deposited data

Results flagged for a closer look

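Opposite directions with EIPA in the 2 preparations drew attention to the mt- share of barcodes with under 1000 genes. The share of their UMIs from mt- genes in the EIPA library was 0.713 times that of the DMSO library in replicate 1 and 2.81 times in replicate 2. The share of all barcodes that had few genes and 20% or more mt- UMIs was 0.608 times and 3.02 times, and the share that had few genes and under 5% mt- UMIs was 1.40 times and 0.144 times. The difference between preparations was not tested, because each holds 1 library per treatment.

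A set of 4 genes had an effect of EIPA that differed between barcodes with few genes and the others in a test of the difference. The log2 fold change was larger in barcodes with few genes by 2.30 for Sst, 1.05 for Gcg and 5.86 for AF067061, and smaller for Afp (-1.54). In WT EIPA 1 and 2, a few barcodes held 203 of 318 and 240 of 262 Sst UMIs. For Gcg they held 70 of 181 and 86 of 144. AF067061 rested on 1 and 2 UMIs with DMSO and 8 and 2 UMIs with EIPA, and 775 of its 800 UMIs in the other barcodes of WT DMSO 2 came from 1 barcode. Afp had 381 and 15 UMIs with DMSO and 122 and 5 UMIs with EIPA in barcodes with few genes.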

How the results depend on the processing

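Counts of genes that differed with EIPA depended on the test. In barcodes with few genes 33 passed, but 52 with DESeq2, 149 without a filter, 18 without mt- genes, 155 with the replicate block, 9 at under 500 genes, 11 at under 1500 genes and 13 at under 5% mt- UMIs (added after the data were seen), and 41 to 282 when 1 library was left out. Under 20% mt- UMIs 83 passed, but 24 without TMM, 46 with DESeq2, 175 without a filter, and 0 to 224 with 1 library left out. At 20% or more 22 passed, but 106 without a filter, 12 without mt- genes, 153 with the replicate block, and 8 to 78 with 1 library left out. With 1000 or more genes 0 passed, but 520 with DESeq2, 134 without a filter, 859 with the block, and 0 to 131 with 1 library left out. The interaction gave 4, but 1 with DESeq2, 1 at under 500 genes, 14 at under 1500 genes, and 3 to 10 with 1 library left out. The block, which pairs preparations, gave 113 under 20% mt- UMIs.

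The EIPA difference in the share of barcodes, taken between group means without pairing, turned to 2.59 points at under 500 genes. With 1 library left out, which breaks a pair, this difference ran from -6.89 to 1.01. It ran from -0.692 to 17.6 for mt- UMIs, -4.68 to 9.18 for barcodes at 20% or more and -9.22 to 0.994 for those under 5%, which averaged -4.11. The 10 genes at least 2-fold higher became 4 with CPM over all UMIs, with means of per-barcode shares, at under 500 genes, with a pseudocount of 50 CPM and under 5% mt- UMIs, 5 under 20% mt- UMIs on both sides, and 20 with a pseudocount of 5 CPM. Tsix reversed at under 500 genes (-0.17) and under 5% mt- UMIs (-0.49). Of 378 alternatives for named genes within a class, none reversed, 54 lost the call and 34 gained it. The causes were not tested. Few libraries per group, and 744 barcodes under 20% mt- UMIs in WT EIPA 2 and 418 with Dox, limit the precision.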
